A study of Mus musculus with 5 samples.

Results

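Gene expression in the library labelled MCC, a mouse myeloid-like cell complex, was compared with that in the library labelled MEF, mouse embryonic fibroblasts. All genes at 5 CPM or more (CPM, counts relative to library size) in either library entered the comparison, 11720 of 34970 gene symbols in the table. By a 4-fold rule 943 of these (8.05%) were higher in MCC, 318 (2.71%) were lower and 10459 were neither; read counts under 3 were set to 3 before a ratio was taken. The series, titled for the reprogramming of fibroblasts to macrophages, holds 5 RNA sequencing libraries, 1 per group, and the other 3 serve here only to show where else a gene was read: BM (bone marrow), PB (blood cells, CD45+ in the design text, CD45 being the common surface protein of leukocytes) and iPSC (induced pluripotent stem cells). The labels give every library as wild type; strain, age, the way in which the MCC cells were made, their passage and the fibroblasts they came from are not stated in the labels. Each group has 1 library, so there are no replicates and no p-values, and every value compares 1 library with another. The range in brackets after a fold is its 95% counting interval, which covers counting error only. Total counts were 47557598 in MCC and 46517281 in MEF.

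Macrophages are phagocytes of the myeloid lineage that sense microbial products, engulf and degrade particles and present antigen, whereas fibroblasts build and contract the extracellular matrix of connective tissue. Fibroblasts from different body sites keep distinct patterns of developmental transcription factors and secreted signals, and in culture on plastic they take on a contractile state in which serum, TGF-beta and the mechanosensitive co-activator YAP drive many genes. A comparison between a macrophage-like culture and fibroblasts therefore bears on far more than lineage markers, and most of the genes described here are no such markers.

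Both labels were first read against defining markers. The macrophage receptor gene Csf1r stood at 869 CPM in MCC and 1.57 in MEF, and C1qa, a complement subunit made by macrophages, at 972 CPM in MCC and 0.0462 in MEF. Both libraries held fibroblast transcripts: Col1a1 (type I collagen) was at 6563 CPM in MCC and 8923 in MEF, and Pdgfra, a growth factor receptor of mesenchymal cells, at 665 CPM in MCC and 107 in MEF. The MCC library thus carried macrophage and fibroblast transcripts side by side. In a bulk library, a cell type present in fewer cells and a cell type with less RNA per cell cannot be told apart, nor can a mixture of cells and single cells that hold both sets of transcripts. Summed over 70 macrophage and monocyte markers, the level was 38922 CPM in MCC and 4431 CPM in MEF, with 13 of the markers at 0 reads in MEF and 1 in MCC. Of the 70, 60 reached 5 CPM in MCC and 14 in MEF, so the MEF sum rests mostly on those 14. Over the 60 markers tested the median log2 ratio was 9.77. How much of each difference came with that change in macrophage transcripts was not tested.

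Markers of other cell types were mostly at or near 0 in both libraries. The endothelial genes Pecam1 and Cdh5 were at 0.370 and 0.255 CPM in MCC, and in MEF at 0.370 and 1.20 CPM. The epithelial genes Epcam and Krt5 were at 0.0926 and 0.0231 CPM in MCC, Sox10 of neural crest and Schwann cells at 0.0231 CPM, and the pluripotency genes Pou5f1 and Nanog at 0.347 and 0.486 CPM. Of 20 endothelial genes 5 reached the level filter, of 22 epithelial genes 2, of 18 Schwann cell and neural crest genes 6, of 22 neuronal genes 5, of 18 cartilage genes 1 and of 18 genes of bone-forming cells 4. Single members nevertheless differed. Krt18, a simple epithelial keratin, was 258-fold (45.9 to 10220.1) lower, on 1 MCC read. Stmn2, a microtubule regulator of neurons, was 6.62-fold (5.40 to 8.19) higher at 16.4 CPM in MCC and 2.47 in MEF, while Ncam1, a neural cell adhesion molecule, was 7.72-fold (7.24 to 8.23) lower and Tubb3, a neuronal tubulin, 5.93-fold (5.56 to 6.34) lower. Pmp22, a myelin protein also made by fibroblasts, was 5.43-fold (5.25 to 5.62) higher, and the adipocyte regulator gene Pparg 4.45-fold (3.84 to 5.18) higher at 22.3 CPM in MCC and 5.02 in MEF. Of 9 osteoclast genes tested 2 were higher (22.2%, against 8.05% of all tested genes). They were Acp5 (tartrate-resistant acid phosphatase) at 9.44 CPM in MCC and 0.925 in MEF and Atp6v0d2, a proton pump subunit, with 1 read in MEF. The calcitonin receptor gene Calcr, which marks mature osteoclasts, had 0 reads in both libraries.

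The higher side held more genes and larger ratios than the lower side. Genes on the higher side lay a median of 18.0-fold above MEF, 321 of them at least 64-fold, and 74 had 0 reads in MEF. On the lower side the median was 7.52-fold, 22 genes were at least 64-fold lower, and 1 gene had 0 reads in MCC. Over all 11720 genes the median log2 ratio was −0.01, and 50.6% were below MEF, which the TMM scaling sets near 0 and near an even split. Lists of classic macrophage, pan-leukocyte, collagen and contractile genes, together with all collagens, accounted for 87 of the higher and 21 of the lower genes, which leaves 856 higher and 297 lower genes outside them. Nearest to the 4-fold line on the higher side were Tspan11 at 4.003-fold (3.75 to 4.27) higher and Irak3 at 4.004-fold (3.57 to 4.50) higher just inside, and Brdt at 3.98-fold (3.08 to 5.19) higher and Coro7 at 3.98-fold (3.67 to 4.31) higher just outside. On the lower side Klk8 at 4.01-fold (2.97 to 5.51) lower and Igf2bp1 at 4.02-fold (3.61 to 4.48) lower were just inside, and Mthfd2 at 3.99-fold (3.81 to 4.18) lower and Phgdh at 3.98-fold (3.88 to 4.08) lower just outside; Klk8 shares 24.8% of its exonic bases with another gene.

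**Figure D1:**
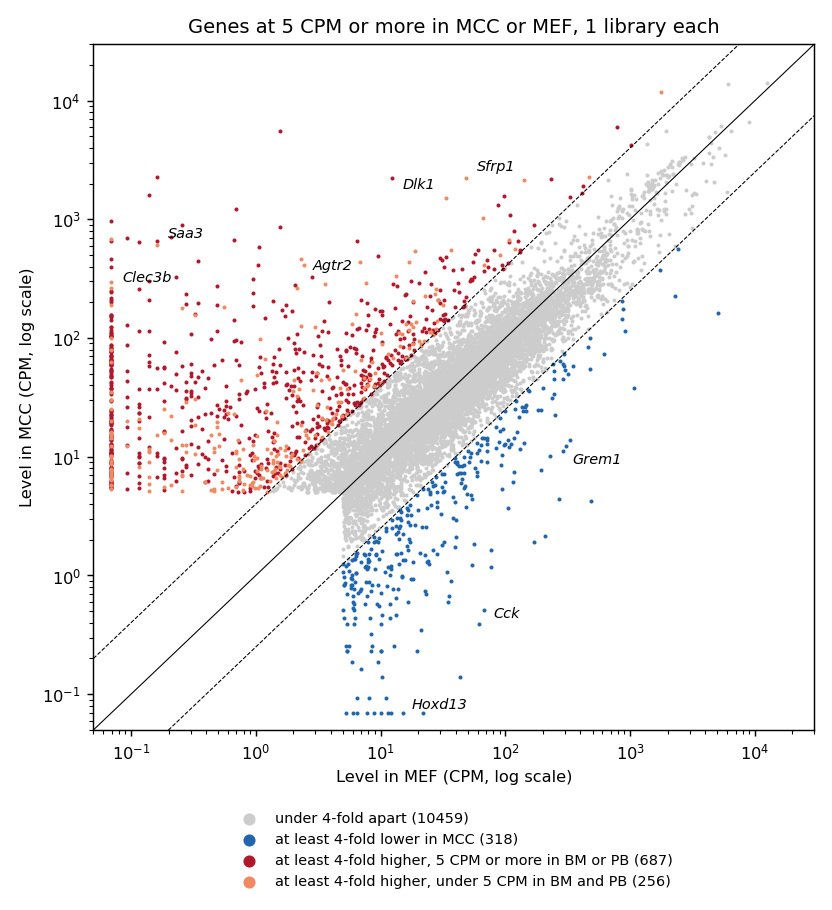
Level of each of the 11720 tested genes in MEF (x axis, CPM, log scale) and MCC (y axis, CPM, log scale), 1 library each, with libraries under 3 reads drawn at the level of 3 reads. The solid line marks equal levels and the dashed lines a 4-fold difference; 943 genes lie above the upper dashed line and 318 below the lower one, and of the 943 higher genes 256 (light points) were under 5 CPM in both BM and PB.

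The higher genes were then looked up in the native blood libraries. Of the 943, 687 (72.9%) were at 5 CPM or more in BM or PB, against 83.5% of all tested genes, and 335 (35.5%) reached that level in iPSC, against 86.6%. The remaining 256 (27.1%) were under 5 CPM in both blood libraries, against 16.5% of all tested genes. Of the 318 lower genes, 119 (37.4%) reached 5 CPM in BM or PB and 193 (60.7%) in iPSC. The higher side thus held genes that bone marrow or blood shared and genes scarcely read there.

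Among the 15 genes off the classic lists whose higher level was best supported by counts, most belong to myeloid cells. Wfdc17, a secreted protease inhibitor of the whey acidic protein family, stood at 468 CPM in MCC and 0.0462 in MEF and 39.9 and 147 CPM in BM and PB. Pld4, an endosomal nuclease of phagocytes, stood at 242 CPM in MCC and 0.0462 in MEF, and Tnfaip8l2, a brake on immune receptor signalling, at 211 CPM in MCC and 0.139 in MEF. Clec10a, a lectin receptor for galactose-type sugars, was at 211 CPM in MCC on 0 MEF reads, at least 3042-fold higher with those reads set to 3. The leukocyte myosin gene Myo1f, the inhibitory receptor gene Pirb and the complement receptor gene C5ar1 were at 153, 123 and 105 CPM in MCC, each on 3 MEF reads or fewer. Nxpe5 (264 CPM), Lrrc25 (124 CPM), Ms4a6b (155 CPM) and Ms4a4a (109.9 CPM) were also among them, as were Saa3, Ifi27l2a and Clec3b. Of these, Saa3, at 0.442 and 2.68 CPM in BM and PB, Nxpe5, at 2.68 and 2.11 CPM, and Clec3b were under 5 CPM in both native blood libraries. Clec3b encodes tetranectin, a plasminogen-binding protein of connective tissue, and had 296 CPM in MCC, 2 reads in MEF and 0.368 CPM in each of BM and PB.

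Secreted and surface proteins of connective tissue stood at the top of the higher genes that were nearly absent from bone marrow and blood. Of the 943 higher genes, 165 (17.5%) were under 1 CPM in both BM and PB, against 7.66% of all tested genes. The 12 of these with the highest MCC level, in CPM not corrected for gene length, all encode secreted, membrane-anchored or receptor proteins. Ptn (pleiotrophin, a heparin-binding growth factor, chr6:36714929-36810220) stood at 2290.3 CPM in MCC and 469 in MEF, 4.88-fold (4.81 to 4.96) higher. Dlk1, an imprinted protein related to Notch ligands (chr12:109452823-109463336), stood at 1512 CPM in MCC and 33.3 in MEF, 45.3-fold (43.03 to 47.8) higher. Efemp1, a fibulin of elastic matrix (chr11:28853204-28926743), stood at 556 CPM in MCC and 36.6 in MEF, 15.2-fold (14.4 to 15.996) higher. Each of these was thus already present in MEF, at 33.3 CPM or more. Dpt (dermatopontin, which binds decorin and shapes collagen fibrils) was at 436 CPM in MCC and 16.8 in MEF, and Apod (apolipoprotein D, a carrier of small lipids) at 437 CPM in MCC and 6.82 in MEF. Agtr2, a receptor for angiotensin II found in fetal mesenchyme (chrX:21484544-21489164), was at 413 CPM in MCC and 2.43 in MEF, 170.3-fold (141 to 208) higher. Vegfd, a growth factor for lymphatic vessels, was at 330.5 CPM in MCC and 13.2 in MEF, and Ccn3, a matricellular protein, at 258 CPM in MCC and 27.8 in MEF. Gas1, a surface protein that binds hedgehog, was at 415 CPM in MCC and 67.9 in MEF, with 19.9% of its exonic bases shared with another gene. The chemokine gene Ccl8, Clec3b and the Wnt-binding gene Sfrp2, described with its pathway, completed the 12. In iPSC the levels of these 12 genes ran from 0 CPM for Agtr2 to 26.99 CPM for Dlk1. All builds are GRCm38 (mm10), with gene positions from GENCODE release M21.

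A set on the lower side was chosen for scarcity in BM, PB and iPSC, and some of its genes were still read in MCC at more than 5 CPM. The 12 with the highest MEF level among lower genes under 1 CPM in BM, PB and iPSC included a peptide hormone gene, secreted proteases and receptor genes. Cck, the peptide hormone cholecystokinin, was at 0.509 CPM in MCC against 67.3 in MEF. C1qtnf3, a secreted C1q-like protein, was at 6.90 CPM in MCC against 59.8 in MEF, and Masp1, a serine protease of the lectin complement pathway, at 7.34 CPM in MCC against 46.3 in MEF. Tll1, a protease that processes procollagen and releases BMPs, was at 0.903 CPM in MCC against 36.8 in MEF, 40.8-fold (29.7 to 57.6) lower. Ccbe1, which activates lymphatic growth factor signalling, was at 1.90 CPM in MCC against 32.3 in MEF. Tfpi2, an inhibitor of serine proteases, was 84.9-fold (45.95 to 178) lower, and Tnmd (tenomodulin, a tendon membrane protein) 8.43-fold (6.91 to 10.4) lower. The receptor genes Adra2a (adrenergic) and Adcyap1r1 (for the peptide PACAP) were 33.5-fold (23.3 to 49.9) lower and 30.6-fold (21.5 to 44.9) lower. Kcnab1, a potassium channel subunit, Hhipl1 and the forkhead gene Foxs1 were at 5.72, 10.04 and 2.64 CPM in MCC, and in MEF at 47.1, 51.6 and 17.3 CPM. Summed over 52 collagen and fibroblast matrix markers, the level was 58036 CPM in MCC and 74744 CPM in MEF. How much of each difference came with a change in fibroblast RNA was not tested.

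**Figure D2:**
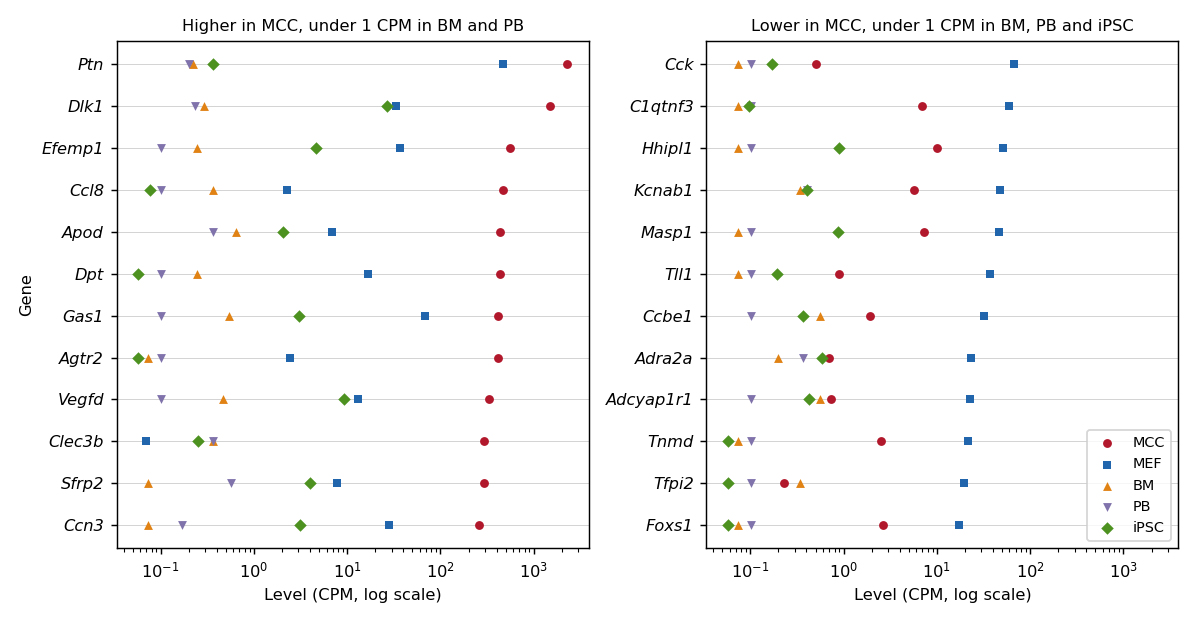
Levels (x axis, CPM, log scale) in the 5 libraries, 1 each, of the 12 most abundant higher genes under 1 CPM in BM and PB (left) and the 12 most abundant lower genes under 1 CPM in BM, PB and iPSC (right), with libraries under 3 reads drawn at the level of 3 reads. MCC points lie to the right of MEF on the left panel, up to 2290 against 469 CPM for Ptn, and to the left of MEF on the right panel.

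Wnt pathway genes past the rule were mostly higher, and included antagonists, receptors and ligands. Wnt proteins are secreted lipid-modified ligands that act through Frizzled receptors, and SFRP proteins bind and sequester them. Of 29 members tested, 6 were higher and 1 lower (20.7% and 3.45%, against 8.05% and 2.71% of all tested genes), and the median log2 ratio was 0.70. Sfrp1 (chr8:23411502-23449632) was at 2217 CPM in MCC and 48.1 in MEF, 46.1-fold (44.2 to 48.2) higher, and Sfrp2 at 292 CPM in MCC and 7.70 in MEF, 37.9-fold (34.02 to 42.4) higher. Lgr5, a receptor for the Wnt-enhancing R-spondins, was 6.87-fold (6.36 to 7.44) higher, its ligand gene Rspo1 13.2-fold (9.61 to 18.6) higher, the receptor gene Ror1 5.44-fold (4.45 to 6.71) higher and the ligand gene Wnt5b 4.30-fold (3.62 to 5.13) higher. Wnt9a was the member on the lower side, 5.64-fold (4.74 to 6.74) lower. The abundant receptor genes Fzd1 and Fzd2 did not pass, at 3.62-fold (3.44 to 3.82) higher and 1.14-fold (1.10 to 1.18) lower. None of the 6 higher members reached 5 CPM in BM or PB, nor did the 1 lower member. Of the 22 that did not pass, 16 were also under 5 CPM in both.

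Of 30 BMP and activin genes tested, 2 were higher and 5 lower (6.67% and 16.7%, against 8.05% and 2.71% of all tested genes; median −0.59), so the higher share was near that of all tested genes. Grem1 (gremlin, a secreted BMP antagonist) was at 11.1 CPM in MCC against 291 in MEF, 26.2-fold (23.9 to 28.8) lower. Inhba, the activin A subunit, was at 10.1 CPM in MCC against 229 in MEF, 22.7-fold (20.6 to 25.05) lower. The inhibitory SMAD gene Smad7, an early target of TGF-beta and BMP signals, was 7.36-fold (6.46 to 8.42) lower, the receptor gene Bmpr1b 9.74-fold (7.29 to 13.3) lower and the activin-binding gene Fstl3 4.45-fold (3.68 to 5.43) lower. Fstl3 shares 47.3% of its exonic bases with another gene. On the higher side stood Chrdl1, another BMP antagonist, at 12.7 CPM in MCC and 0.254 in MEF, 49.8-fold (27.6 to 100.3) higher, and the ligand gene Gdf10, named after its values were seen, at 6.67 CPM in MCC and 1.13 in MEF, 5.88-fold (4.33 to 8.14) higher. Among the members past the rule, the BMP antagonist Grem1 was thus lower and the BMP antagonist Chrdl1 higher in MCC.

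Genes of TGF-beta signalling itself had members on both sides. Of 22 tested, 3 were higher and 3 lower (13.6% each, against 8.05% and 2.71% of all tested genes, with a median of −0.48). The receptor genes Tgfbr2 and Tgfbr3 were higher, Tgfbr3 (betaglycan) at 182 CPM in MCC and 39.3 in MEF. Nrros, which tethers latent TGF-beta on macrophages, was at 159 CPM in MCC and 0.324 in MEF, 491-fold (293 to 899) higher, whereas Lrrc32, its relative on other cells, was at 49.6 CPM in MCC and 315 in MEF, 6.36-fold (6.07 to 6.66) lower. The ligand gene Tgfb3 was 7.36-fold (6.90 to 7.85) lower and Skil, a feedback inhibitor induced by TGF-beta, 6.37-fold (5.78 to 7.03) lower. Among insulin-like growth factor genes, 5 of 18 were higher and 2 lower (27.8% and 11.1%, median −0.38). Igf1 stood at 285 CPM in MCC and 12.5 in MEF, 22.8-fold (20.9 to 24.9) higher, and the binding protein gene Igfbp4 at 2179 CPM in MCC and 231 in MEF, 9.43-fold (9.24 to 9.63) higher. Pappa, the protease that cleaves IGFBP4 and frees the growth factor, was lower, at 12.8 CPM in MCC and 99.2 in MEF, 7.75-fold (7.09 to 8.48) lower. Igfbp3 and Igfbp2 were 8.55-fold (8.05 to 9.08) higher and 7.55-fold (6.998 to 8.16) higher, while Igfbp5 and Igfbp7 were below MEF without passing, at 2.22-fold (2.17 to 2.27) lower and 3.64-fold (3.54 to 3.74) lower. The binding proteins thus did not share 1 direction.

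FGF, EGF-type and other growth factor genes also differed member by member. Of 18 FGF genes tested 0 were higher and 3 lower (0% and 16.7%, against 8.05% and 2.71% of all tested genes, with a median of −0.86). These were Fgf2, 4.31-fold (3.81 to 4.89) lower, and Etv4 and Dusp4, transcriptional targets of the kinase ERK, 19.2-fold (15.5 to 23.9) lower and 32.04-fold (23.9 to 43.95) lower. Of 29 EGF, HGF, VEGF and neurotrophin genes, 7 were higher and 5 lower (24.1% and 17.2%, median −0.22). Hbegf, an EGF receptor ligand, was at 1.23 CPM in MCC against 54.1 in MEF, 44.1-fold (33.6 to 59.04) lower. Kitl (stem cell factor, the ligand of KIT) was at 110.2 CPM in MCC and 14.2 in MEF, 7.79-fold (7.16 to 8.49) higher, and had 0 reads in PB. The neurotrophin receptor gene Ntrk2 was at 43.9 CPM in MCC and 0.763 in MEF, and the GDNF-family receptor gene Gfra2 at 43.7 CPM in MCC and 2.27 in MEF. Il6st, the shared receptor subunit of the interleukin-6 family, was high in both libraries and did not pass, at 3.38-fold (3.32 to 3.46) higher. Among Notch genes, the modifier genes Lfng and Mfng were 4.28-fold (3.71 to 4.96) higher and at least 153-fold higher, while the ligand gene Jag1 and the target genes Hes1 and Heyl were 4.94-fold (4.53 to 5.39) lower, 5.41-fold (4.92 to 5.97) lower and at least 175-fold lower. Of 47 axon guidance genes, 8 were higher and 7 lower (17.0% and 14.9%). The netrin receptor gene Unc5b was at 13.96 CPM in MCC against 331 in MEF, and the semaphorin gene Sema3c at 94.8 CPM in MCC and 20.5 in MEF.

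**Figure D3:**
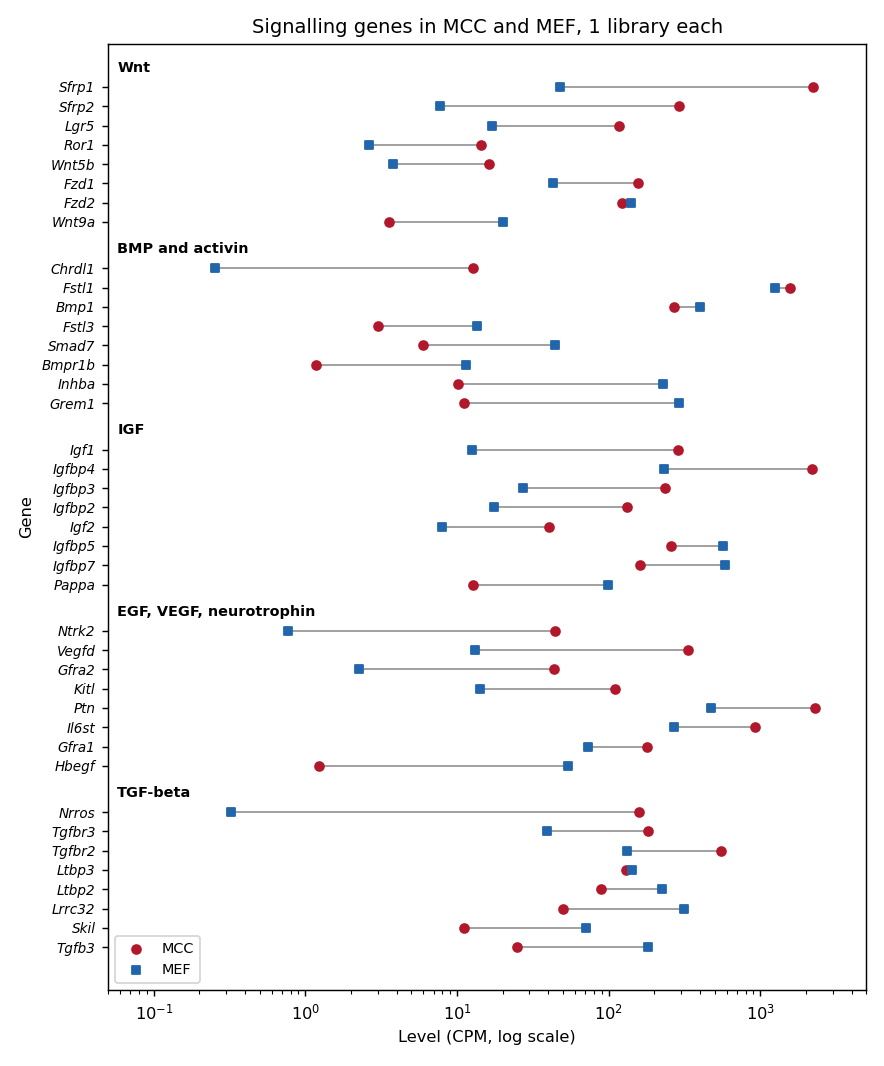
Levels (x axis, CPM, log scale) in MCC (circles) and MEF (squares), 1 library each, of the named members of 5 signalling lists, each pair joined by a line and ordered by ratio within its list. Sfrp1 and Igf1 lie far to the right in MCC, and Grem1, Inhba, Hbegf and Tgfb3 far to the right in MEF.

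Developmental transcription factors of connective tissue had members on both sides. HOX genes record position along the body axis, and factors such as PITX1 and TBX4 mark the hindlimb. Of 55 mesenchymal and regional factors tested, 5 were higher and 8 lower (9.09% and 14.5%, against 8.05% and 2.71% of all tested genes; median −0.30), so the higher share was near that of all tested genes. All 13 were under 1 CPM in both BM and PB, as were 26 of the 42 tested that did not pass. Pitx1 was at 0.185 CPM in MCC against 9.48 in MEF, 51.2-fold (25.7 to 119) lower, and Tbx4 at 0.231 CPM in MCC against 10.1 in MEF, 43.6-fold (23.5 to 91.5) lower. Foxf2, a forkhead factor of gut and craniofacial mesenchyme, was 11.7-fold (8.62 to 16.4) lower. Higher were Osr1 and Osr2, odd-skipped factors of limb, kidney and irregular connective tissue, at 119.6 CPM in MCC and 27.7 in MEF for Osr1 and 39.5 CPM in MCC and 8.90 in MEF for Osr2. Barx1, a factor of stomach and jaw mesenchyme, was 16.1-fold (11.1 to 24.1) higher. Pax9 and Nkx2-3 were the other higher members, both factors of pharyngeal or visceral mesenchyme, and were 6.10-fold (4.67 to 8.07) higher and at least 82.7-fold higher; both are named after their values were seen. The general mesenchymal factor gene Prrx1 did not pass, at 189.7 CPM in MCC and 285 in MEF.

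Of 39 HOX genes, 16 were tested, with 0 higher and 1 at least 4-fold lower (6.25%, against 2.71% of all tested genes). Their median log2 ratio was −1.45, the lowest median among the lists of 10 or more tested members outside the classic ones. Of the 16, 12 were at least 2-fold lower, against 10.1% of all tested genes. Hoxd13, the most posterior gene of its cluster, active in the distal limb and genital region, was at 15.1 CPM in MEF and 217-fold (73.97 to 1056) lower, on 3 MCC reads. Hoxb9 was at 15.5 CPM in MCC against 54.8 in MEF and Hoxa10 at 20.9 CPM in MCC against 35.5 in MEF, neither past the rule. The highest ratio within the group was a log2 of 0.73, so members did not all lie below MEF.

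Imprinted genes are read from 1 parental copy in at least some tissues and include many fetal growth genes. Members of this list passed the rule on the higher side only. Which parental copies were read in these cells was not tested. Of 25 tested, 6 were higher and 0 lower (24% and 0%, against 8.05% and 2.71% of all tested genes), with a median of 0.97. Besides Dlk1, these were Dcn (decorin) at 2152 CPM in MCC and 141 in MEF, Mest, a fetal mesoderm gene, at 85.5 CPM in MCC and 14.3 in MEF, Igf2 at 40.2 CPM in MCC and 7.93 in MEF, Rtl1, a retrotransposon-derived gene beside Dlk1, at 5.62 CPM in MCC and 1.09 in MEF, and Ppp1r9a (neurabin) at 5.51 CPM in MCC and 0.601 in MEF. Igf2 shares 64.5% of its exonic bases with another gene and Mest 23.1%. The non-coding RNA gene H19 was abundant in both and did not pass, at 3.14-fold (3.11 to 3.17) higher, and Grb10, a brake on growth factor receptors, was 1.43-fold (1.40 to 1.46) lower.

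Cell adhesion lists held more lower than higher genes once the leukocyte integrins were set aside. Of the 14 tested genes on the integrin list, which leaves out leukocyte integrins, 0 were higher and 3 lower (median −0.98). These shares were 0% and 21.4%, against 8.05% and 2.71% of all tested genes. Itga5, the fibronectin receptor subunit, was at 83.9 CPM in MCC against 463 in MEF, 5.53-fold (5.33 to 5.73) lower, and its partner gene Itgb1 at 535 CPM in MCC against 1701 in MEF, 3.18-fold (3.13 to 3.23) lower, short of the rule. Itga3 and Itga8 were 6.04-fold (4.65 to 7.96) lower and 4.13-fold (3.28 to 5.24) lower. Among leukocyte integrin genes on the classic lists, and named after their values were seen, Itga4 was 4.15-fold (3.65 to 4.72) higher, Itgb2 94.8-fold (66.3 to 141) higher and Itgam at least 965-fold higher. Of 11 connexin and tight junction genes 3 were lower and 0 higher (27.3% and 0%, median −1.20). The junctional adhesion gene F11r was 5.94-fold (4.89 to 7.26) lower, while Gja1, the main fibroblast connexin, was 1.61-fold (1.54 to 1.69) higher. Among 18 cadherins, Cdh2 (N-cadherin) was 4.28-fold (3.98 to 4.60) lower, Cdh3 (P-cadherin) 5.55-fold (5.06 to 6.08) lower and Cdh10 385-fold (68.6 to 15232) lower on 1 MCC read, whereas Cdh13 and Fat3 were 5.50-fold (4.91 to 6.18) higher and 5.27-fold (3.82 to 7.42) higher. Cdh11, the cadherin of mesenchymal cells, did not pass, at 2.08-fold (2.04 to 2.13) lower. Of 16 basement membrane genes 2 were higher and 4 lower (12.5% and 25%). Higher were Nid2 (nidogen 2) at 228 CPM in MCC and 22.5 in MEF and Frem1 at 9.40 CPM in MCC and 0.971 in MEF. Among the lower was the laminin chain gene Lama1, at 0.764 CPM in MCC against 12.5 in MEF.

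Extracellular proteases and their inhibitors went both ways (median 0.10). Of 49 tested, 8 were higher and 4 lower (16.3% and 8.16%, against 8.05% and 2.71% of all tested genes). Several serpin genes were higher, Serpine2 (protease nexin) at 242 CPM in MCC and 42.8 in MEF, Serpina3n at 66.9 CPM in MCC and 1.18 in MEF and Serping1, the C1 inhibitor of complement, at 274 CPM in MCC and 13.5 in MEF. Adamts15, a proteoglycan-cleaving protease, was at 184 CPM in MCC and 0.555 in MEF, 331-fold (222 to 517) higher, and under 1 CPM in BM and PB. Mmp10 (stromelysin 2) had 2 reads in MCC and was 167-fold (45.8 to 1383) lower.

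Targets of YAP and of serum response lay below MEF more often than above it. Of 34 tested, 1 was higher and 5 lower (2.94% and 14.7%, against 8.05% and 2.71% of all tested genes). Their median was −0.79, and 15 were at least 2-fold lower, against 10.1% of all tested genes. Ankrd1, a muscle and stretch-response gene, was at 0.671 CPM in MCC against 35.3 in MEF, 52.6-fold (36.5 to 78.8) lower, and Tead4, a DNA-binding partner of YAP, was 14.3-fold (8.98 to 24.1) lower. Ccn2 was 114-fold (98.7 to 133) lower while its relative Ccn1 was only 2.38-fold (2.32 to 2.44) lower. Of the exonic bases of Ccn2, 23.2% are shared with another gene, and of those of Fosl1 57.2%. The early-response genes split: Fos, an AP-1 subunit, was 6.50-fold (6.15 to 6.89) higher at 209 CPM in MCC and 32.2 in MEF, and Egr3 and Fosl1 6.08-fold (4.43 to 8.54) lower and 5.37-fold (4.03 to 7.28) lower. The lower genes best supported by counts also included Prkg2, a cGMP-dependent kinase, at 1.18 CPM in MCC against 77.1 in MEF, Mcam (CD146 of vessel-wall cells) at 1.64 CPM in MCC against 76.8 in MEF, the protease-activated receptor gene F2rl1 at 0.347 CPM in MCC against 21.3 in MEF, Acsbg1, a fatty acid CoA ligase, at 0.0694 CPM in MCC against 11.5 in MEF, and Serinc2 at 0.602 CPM in MCC against 34.8 in MEF. Serinc2 lay within the single run of at least 3 neighbouring lower genes, between Tinagl1 at 11.1-fold (9.62 to 12.8) lower and the fatty acid carrier gene Fabp3 at 4.65-fold (4.05 to 5.37) lower on chromosome 4.

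Interferon-induced genes gave the largest count of higher genes among the lists outside the classic ones. Interferons act through transcription factors such as STAT2 and IRF9, which bind the interferon-stimulated response element upstream of genes that detect and block viruses. Of 58 nucleic acid sensors and antiviral genes tested, 46 were higher (79.3%, against 8.05% of all tested genes) and 0 lower, and the median log2 ratio was 4.12. Of 10 interferon-induced GTPases, 9 were higher and 0 lower (median 4.47). In BM or PB, 45 of the 46 and all 9 of these reached 5 CPM as well. So did the 12 sensors and antiviral genes and the 1 GTPase that did not pass, and 83.5% of all tested genes. Isg15, a ubiquitin-like modifier, was at 156 CPM in MCC and 7.86 in MEF, 19.9-fold (17.8 to 22.2) higher. Irf7, the factor that amplifies type I interferon, was at 114 CPM in MCC and 3.42 in MEF, Stat2 at 114 CPM in MCC and 16.6 in MEF and Oasl2, an oligoadenylate synthetase-like protein, at 112 CPM in MCC and 3.82 in MEF. Ifi204, a DNA-sensing protein of the HIN-200 family, was at 168 CPM in MCC and 10.3 in MEF and Slfn2 (schlafen 2) at 233 CPM in MCC and 16.1 in MEF. Ifitm3, which blocks virus entry, was high in both and did not pass, at 3.83-fold (3.76 to 3.91) higher. Of the GTPases, the guanylate-binding gene Gbp3 was at 56.9 CPM in MCC and 1.06 in MEF, Gbp2 at 57.8 CPM in MCC and 5.46 in MEF, Iigp1 at 32.2 CPM in MCC and 0.347 in MEF and Irgm2 at 50.3 CPM in MCC and 3.12 in MEF. Irgm1 was the tested member short of the rule, at 2.06-fold (1.94 to 2.19) higher. Gbp, Ifi200, Oas1 and Ifit genes have near-identical copies, so reads could be split between neighbours and their single values are uncertain.

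Promoters of these genes were read for the letters of the response element, to show the sequences behind the group. Windows from 250 bases before to 50 bases after each gene start came from RefSeq on GRCm38.p6, and the search used GAAANNGAA on either strand. Of 46 windows of the 39 higher genes on the 2 lists that had a window, 28 (60.9%) held a match, against 8.56% of all 32851 windows and 13.3% of windows of the other higher genes. The following stretches are printed 5′ to 3′ along the gene, lie before the gene start, and carry each match, or its reverse complement, in capitals. They show single matches (Gbp2, Irgm2, Igtp, Ifi205, Ifi207), overlapping ones (Oas1a, Isg15) and an overlapping pair with a separate match (Ifit1), and neighbouring family members can be compared letter by letter.
Isg15: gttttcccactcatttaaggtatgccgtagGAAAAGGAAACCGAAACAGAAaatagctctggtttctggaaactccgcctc
Ifit1: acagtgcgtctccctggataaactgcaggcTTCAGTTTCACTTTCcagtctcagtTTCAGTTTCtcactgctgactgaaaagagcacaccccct
Oas1a: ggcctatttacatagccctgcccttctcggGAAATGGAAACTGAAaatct
Gbp2: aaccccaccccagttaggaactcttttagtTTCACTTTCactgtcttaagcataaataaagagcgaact
Irgm2: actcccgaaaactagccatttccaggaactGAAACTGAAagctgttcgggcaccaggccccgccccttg
Igtp: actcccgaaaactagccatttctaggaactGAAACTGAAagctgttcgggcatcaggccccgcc
Ifi205: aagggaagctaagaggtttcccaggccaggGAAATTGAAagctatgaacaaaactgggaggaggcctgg
Ifi207: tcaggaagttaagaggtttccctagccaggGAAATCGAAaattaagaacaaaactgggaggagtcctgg
Isg15 is read at chr4:156200846-156200926 on the minus strand, Ifit1 at chr19:34640750-34640843 on the plus strand, Oas1a at chr5:120907526-120907575 on the minus strand and Gbp2 at chr3:142620575-142620643 on the plus strand. Irgm2 lies at chr11:58214883-58214951 and Igtp at chr11:58199492-58199555, both on the plus strand, and Ifi205 at chr1:174031851-174031919 and Ifi207 at chr1:173741812-173741880, both on the minus strand. The match nearest the gene start began 66 bases before it in Isg15, 84 in Ifit1, 14 in Oas1a, 58 in Gbp2, 64 in Irgm2, 34 in Igtp, 134 in Ifi205 and 41 in Ifi207. A match describes letters and is not evidence that a factor was bound.

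Several of these genes lie side by side in the genome. Among the 11564 tested genes with 1 position in the annotation, 32 runs of at least 3 neighbours, with 129 genes, were higher throughout. On the lower side there was 1 run of 3 genes. Of all tested genes 8.05% were higher and 2.71% lower, and a larger share by itself gives more such runs. Whether called genes lay together more often than these shares give was not tested. The longest spanned 10 HIN-200 and related genes on chr1:173350879-174031810, from Aim2, a sensor of cytosolic DNA at 10.9 CPM in MCC and 0.162 in MEF, to Ifi205 at 21.8 CPM in MCC and 0.347 in MEF. Within it Ifi207, Mndal and Ifi203 were at 80.7, 80.1 and 89.99 CPM in MCC, and Ifi211 had the smallest ratio, 4.17-fold (3.85 to 4.52) higher. A run of 7 on chromosome 11 held the chemokine genes Ccl5, Ccl9, Ccl6, Ccl3 and Ccl4 with Wfdc17 and Wfdc18; Ccl9 was at 200.3 CPM in MCC and 3.88 in MEF, and Ccl3, Ccl4, Ccl6 and Wfdc18 had 0 reads in MEF. Wfdc18, at 7.94 CPM in MCC, was at 0.0982 and 0.301 CPM in BM and PB. Another run on that chromosome held Kif19a and Gprc5c next to 5 CD300 receptor genes. Of these, Cd300a was at 62.1 CPM in MCC and 0.0462 in MEF and Cd300c2 at 72.5 CPM in MCC and 0.0462 in MEF. Gprc5c, an orphan receptor, was at 30.5 CPM in MCC and 0.324 in MEF, with 1.06 CPM in BM and 1.04 CPM in PB. On chromosome 19, AW112010, BE692007 and 5 MS4A genes lay together; Ms4a7, at 191 CPM in MCC and 0.0694 in MEF, was at 3.17 and 0.737 CPM in BM and PB, whereas Ms4a6c, with 53.1% of its exonic bases shared with another gene, was at 74.1 and 93.2 CPM there. On chromosome 6 a run of 6 C-type lectin genes reached from Clec4a1 to Clec4e: Clec4n (dectin 2, a receptor for fungal mannans) was at 108 CPM with 0 reads in MEF, and Clec4e (Mincle) at 16.6 CPM. MS4A, CLEC4A and CD300 genes are also near-copies of each other.

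Antigen presentation and inflammatory sensing followed the same direction. Of 22 MHC class I and processing genes, 11 were higher and 0 lower (50% and 0%, against 8.05% and 2.71% of all tested genes). Their median was 2.0 on the log2 scale. H2-D1 and H2-K1, class I heavy chains, were 9.97-fold (9.68 to 10.3) higher and 6.02-fold (5.83 to 6.21) higher, B2m, their shared light chain, 4.06-fold (3.99 to 4.13) higher, and the immunoproteasome subunit gene Psmb8 14.9-fold (13.1 to 17.1) higher. Reads of class I genes may be divided between near-copies. Of 33 inflammasome, Toll-like receptor and NF-kB genes, 21 were higher (63.6%) and 0 lower (median 2.52). Casp1, which matures interleukin 1, was at 93.4 CPM in MCC and 0.763 in MEF, its adaptor gene Pycard at 50.7 CPM in MCC and 1.11 in MEF and the cytokine gene Il18 at 31.4 CPM in MCC and 2.20 in MEF. Gsdmd, whose product forms the pores of pyroptosis, was at 148 CPM in MCC and 37.5 in MEF, 3.94-fold (3.73 to 4.16) higher, just under the rule. Of 18 chemokine genes 12 were higher (66.7%) and 0 lower (median 3.33). Ccl12, with 0 MEF reads, was at 79.3 CPM in MCC. Cxcl12, a stromal chemokine that holds blood stem cells in the marrow, was at 898 CPM in MCC and 171 in MEF, 5.25-fold (5.12 to 5.38) higher, and Cxcl5, which draws neutrophils, at 137 CPM in MCC and 19.4 in MEF. The monocyte chemokine genes Ccl2 and Ccl7 did not pass, at 1.19-fold (1.13 to 1.26) higher and 1.39-fold (1.33 to 1.45) lower, and Ccl7 was listed at 0 in BM.

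Many receptors for cytokines and small ligands were higher. Of 29 interleukin and haematopoietic cytokine receptors 12 were higher and 1 lower (41.4% and 3.45%, against 8.05% and 2.71% of all tested genes). Their median was 1.25. All 12 were at 5 CPM or more in BM or PB, as were 14 of the 16 that did not pass. Il4ra, the receptor chain for interleukins 4 and 13, was read in MEF too, and was at 805 CPM in MCC and 117 in MEF, 6.88-fold (6.68 to 7.08) higher. Csf2rb, the shared chain for GM-CSF and interleukin 3, was at 82.7 CPM in MCC on 1 read in MEF, and Il10ra at 46.8 CPM on 1 read in MEF. Of 43 G protein-coupled and purinergic receptors, 16 were higher and 6 lower (median 0.60). P2ry6, a receptor for UDP released by dying cells, was at 142 CPM in MCC and 0.671 in MEF, and C3ar1, the receptor for complement C3a, at 179 CPM in MCC and 0.254 in MEF, while BM and PB had 1.37 and 2.11 CPM of C3ar1. Ednrb, an endothelin receptor, was at 158 CPM in MCC and 6.38 in MEF and Ptgfr, the prostaglandin F receptor, at 109.6 CPM in MCC and 10.04 in MEF; in PB these 2 receptor genes were at 2.04 and 0 CPM. F2r, the thrombin receptor, was lower, at 57.7 CPM in MCC and 348 in MEF, 6.04-fold (5.79 to 6.30) lower.

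PU.1, encoded by Spi1, is the main transcription factor of macrophages and binds purine-rich sites. The letters GAGGAAGT, searched on either strand, were in 56 of 693 windows (8.08%) of higher genes that reached 5 CPM in BM or PB, in 5 of 219 windows (2.28%) of higher genes that did not, and in 4 of 310 windows (1.29%) of lower genes. The share was 3.20% over all 32851 windows and 3.06% over those of tested genes. The following stretches, before the gene start and with the match in capitals, come from an inhibitory receptor, a DNA sensor, neighbouring CD300 genes and a Toll-like receptor, and the CD300 pair is alike around the match.
Pirb: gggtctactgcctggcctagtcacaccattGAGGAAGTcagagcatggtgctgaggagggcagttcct
Aim2: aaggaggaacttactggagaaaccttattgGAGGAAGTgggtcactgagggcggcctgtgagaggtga
Cd300ld: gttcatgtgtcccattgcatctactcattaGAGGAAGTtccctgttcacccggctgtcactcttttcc
Cd300ld3: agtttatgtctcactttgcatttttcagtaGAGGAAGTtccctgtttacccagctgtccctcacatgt
Tlr1: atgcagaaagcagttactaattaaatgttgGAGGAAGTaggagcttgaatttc
They lie at chr7:3720465-3720532 for Pirb (minus strand), chr1:173420461-173420528 for Aim2 (plus strand), chr11:114989992-114990059 for Cd300ld (minus strand), chr11:115048480-115048547 for Cd300ld3 (minus strand) and chr5:64933559-64933611 for Tlr1 (minus strand). The response element letters GAAANNGAA were in 17.0% of windows of higher genes seen in blood, 11.4% of those of the other higher genes and 7.42% of those of lower genes. Letters of AP-1 sites, TGAGTCA, were in 7.76% of windows of higher genes scarcely read in blood, 6.77% of windows of lower genes and 3.74% of windows of tested genes, but in 5.20% of all windows. The TEAD letters GGAATGT were in 4.11%, 4.84% and 2.65% of these sets and in 3.85% of all windows. The TATA box letters TATAAA were in 12.8% of windows of higher genes, 11.3% of those of lower genes and 7.06% of those of tested genes, but in 13.6% of all windows. The C/EBP letters TTGCGCAA were in 2 of 912 windows of higher genes (0.219%) and 2 of 310 windows of lower genes (0.645%). They were in 0.305% of windows of tested genes and 0.183% of all windows. Windows overlap where a gene has several starts, and only 707 of the 943 higher and 223 of the 318 lower genes had one.

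**Figure D4:**
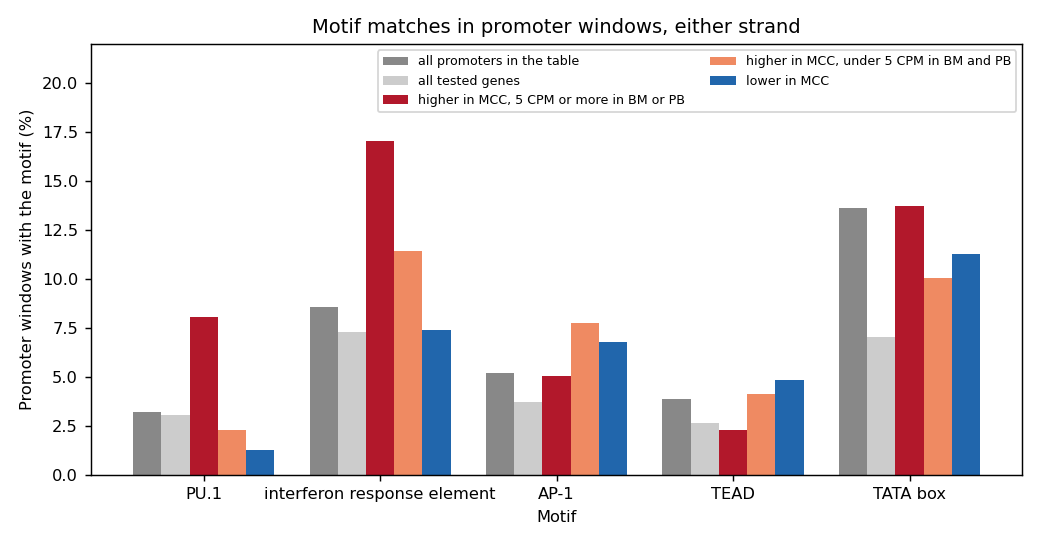
Share of promoter windows (y axis, %) that hold each of 5 motifs on either strand, for all windows in the table, those of tested genes, higher genes split by their level in BM and PB, and lower genes. The PU.1 bar for higher genes seen in blood stands at 8.08% and that for the other higher genes at 2.28%.

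Metabolic lists had medians on either side of MEF. Lysosomal enzymes and proton pump genes lay mostly above MEF (median 0.81). Of 52, 6 were at least 4-fold higher and 0 lower (11.5% and 0%, against 8.05% and 2.71% of all tested genes). At least 2-fold higher were 22, against 15.1% of all tested genes. Lgmn (legumain, an asparagine-specific protease) was at 1315 CPM in MCC and 87.1 in MEF, 15.1-fold (14.6 to 15.6) higher, and Ctsc (cathepsin C) at 455 CPM in MCC and 31.3 in MEF. Psap and Ctsl were abundant in both libraries and did not pass, at 2.54-fold (2.51 to 2.57) higher and 2.26-fold (2.23 to 2.29) higher, and 26.8% of the exonic bases of Ctsl are shared with another gene. Of 30 lipid export and storage genes 12 were higher and 2 lower (40% and 6.67%, median 1.25). Apoe stood at 654 CPM in MCC and 6.50 in MEF, the cholesterol exporter gene Abca1 at 299.6 CPM in MCC and 17.6 in MEF, the phospholipid carrier gene Pltp at 209 CPM in MCC and 6.94 in MEF and Lpl (lipoprotein lipase) at 554 CPM in MCC and 60.5 in MEF. Cholesterol synthesis and uptake genes lay the other way. Of 26, 0 were higher and 1 was at least 4-fold lower (0% and 3.85%), so the lower share was near the 2.71% of all tested genes. At least 2-fold lower were 15, against 10.1% of all tested genes (median −1.05). Cyp51, the lanosterol demethylase, was at 124 CPM in MCC against 385 in MEF.

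Serine, one-carbon and amino acid supply genes were the metabolic list with the lowest median, −1.13. Of 32 tested 6 were at least 4-fold lower and 1 higher (18.8% and 3.125%, against 2.71% and 8.05% of all tested genes). At least 2-fold lower were 18, against 10.1% of all tested genes. The serine synthesis enzymes are encoded by Phgdh, at 165 CPM in MCC against 655 in MEF, Psat1, at 204 CPM in MCC against 653 in MEF, and Psph, at 24.2 CPM in MCC against 99.7 in MEF, so the whole short pathway lay between 3.21-fold and 4.12-fold below MEF. Phgdh and Psph stood close to the line, and their calls follow its exact place. The transporter gene Slc7a3 was 18.1-fold (13.8 to 24.1) lower and Slc7a5, the large neutral amino acid carrier, 4.07-fold (3.92 to 4.23) lower. Chac1, a glutathione-degrading enzyme of the amino acid stress response, was 7.01-fold (6.31 to 7.81) lower. Glul (glutamine synthetase) went against the list, at 196 CPM in MCC and 30.1 in MEF, 6.53-fold (6.16 to 6.93) higher. Of 23 glycolysis genes 2 were higher and 2 lower (8.70% and 8.70%, the higher share near the 8.05% of all tested genes; median −0.55); Hk3, the hexokinase of myeloid cells, was at 75.7 CPM on 1 read in MEF, the lactate exporter gene Slc16a3 was 4.11-fold (3.89 to 4.35) lower, and Gapdh and Pkm were 1.28-fold (1.27 to 1.29) lower and 1.94-fold (1.92 to 1.96) lower.

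Iron and haem handling genes included 9 higher and 1 lower of 23 (39.1% and 4.35%, against 8.05% and 2.71% of all tested genes). Their median was 1.15. The 9 were all at 5 CPM or more in BM or PB, as were 11 of the 13 that did not pass. Fth1, the ferritin heavy chain, was at 4245 CPM in MCC and 1017 in MEF, 4.18-fold (4.13 to 4.22) higher, while the light chain gene Ftl1, with 34.6% of its exonic bases shared, was 1.72-fold (1.70 to 1.74) higher. Trf (transferrin) was at 279 CPM in MCC and 2.08 in MEF, with 63.5% of its exonic bases shared with another gene, and Slc11a1, the iron exporter of the phagosome, was 418-fold (192 to 1140.2) higher. Hmox1, which opens the haem ring, was 2.21-fold (2.15 to 2.28) higher, and the biliverdin reductase B gene Blvrb 8.58-fold (8.10 to 9.09) higher. Of 15 prostanoid and leukotriene synthesis genes tested, 5 were higher and 1 lower (33.3% and 6.67%, median 0.50). Hpgds, the synthase of prostaglandin D, was at 101 CPM in MCC on 2 reads in MEF, with 3.68 and 1.64 CPM in BM and PB, and Alox5ap, needed for leukotrienes, was at 96.3 CPM in MCC and 0.694 in MEF. Upstream of the prostanoids Ptgs2 was lower, at 1.90 CPM in MCC and 171 in MEF. Of 33 oxidative stress genes 5 were higher (15.2%) and 0 lower (median 0.44). Of these, Cbr2, a carbonyl reductase, was at 264 CPM in MCC and 2.13 in MEF. Sod3, the extracellular superoxide dismutase, was at 94.8 CPM in MCC and 22.4 in MEF. Both Cbr2 and Sod3 were under 5 CPM in BM and PB. Retinoid genes held 4 higher and 1 lower of 14 (28.6% and 7.14%). The retinaldehyde dehydrogenase genes Aldh1a1 and Aldh1a3 went in opposite directions, 58.7-fold (36.5 to 101) higher and 9.13-fold (7.26 to 11.6) lower.

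Cell cycle genes differed by small ratios in a common direction. Of 38 DNA replication genes 0 passed the 4-fold rule either way, yet 38 of 38 were below MEF, 7 of them at least 2-fold (median −0.65). Of 43 mitosis genes 0 passed, 41 were below MEF and 19 at least 2-fold lower (median −0.97). Over all tested genes 50.6% were below MEF and 10.1% at least 2-fold lower. Mki67, a protein of dividing cells, was at 71.2 CPM in MCC against 165 in MEF, Top2a at 93.8 CPM in MCC against 172 in MEF and the helicase subunit gene Mcm6 at 97.6 CPM in MCC against 153 in MEF, so proliferation transcripts were read in both cultures. Of 32 CDK inhibitor, G1 cyclin and p53 target genes 1 was higher and 1 lower (3.125% each, against 8.05% and 2.71% of all tested genes). The higher gene was Sesn1 (sestrin 1, a stress-responsive inhibitor of mTORC1) at 169 CPM in MCC and 9.85 in MEF, 17.1-fold (15.5 to 18.9) higher. The lower gene was the kinase gene Plk3, 5.14-fold (4.43 to 5.98) lower. Ccnd2 (cyclin D2) was 2.09-fold (2.04 to 2.13) lower.

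**Figure D5:**
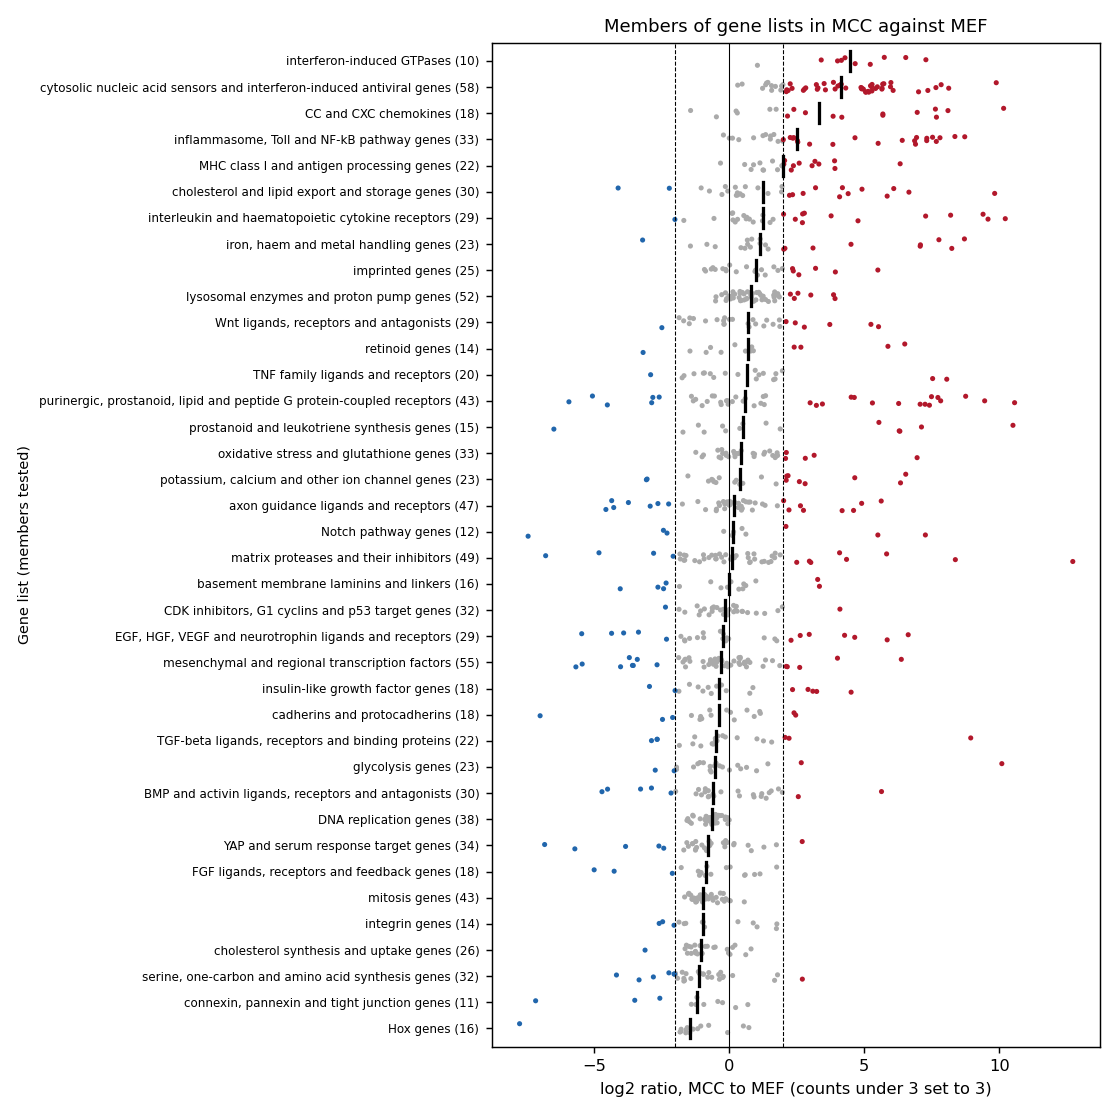
The log2 ratio of MCC to MEF (x axis) for each tested member of the lists drawn, which have 10 or more tested members, with black bars at list medians, dashed lines at 4-fold and coloured points past the rule. List medians run from −1.45 for HOX genes to 4.47 for interferon-induced GTPases, and the DNA replication and mitosis lists have no member past the dashed lines.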

How the data were processed

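Per the labels' protocols, polyA RNA was purified from total RNA extracted with Trizol. The authors deposited whole-number read counts per gene symbol, not normalized, in 1 table with 5 library columns, of which 0 were left unused; STAR, featureCounts and mm10 are the tools and build named in the submitters' processing notes. Their versions, the annotation and the strand setting were not stated there, so reads of overlapping genes cannot be told apart. Total counts ranged from 30078366 (PB) to 47557598 (MCC), and ribosomal protein genes took 12.4% of counts in MCC and 10.1% in MEF.

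From these counts, CPM were computed after TMM scaling (trimmed mean of M values) of the 5 library sizes in edgeR 4.0.16 (R 4.3.3); Python 3.11.15, pandas 2.3.3, scipy 1.17.1 and matplotlib 3.10.9 did the rest. With 1 library a group no test was run. A gene counted as higher or lower at 5 CPM or more in the higher library and a ratio of 4-fold or more, where counts below 3 were replaced by 3, also in medians of log2 ratios. Folds carry exact 95% Clopper-Pearson intervals for the share of reads; reads without molecular identifiers are not independent molecules, so intervals and floors cover counting error only. With 0 reads on one side, a fold given as at least is the ratio with that count set to 3, 0.0694 CPM in MCC and in MEF. The lower end of the counting interval lies below that ratio, at 2474-fold for Clec10a and 141-fold for Heyl. With 1 to 3 reads the ratio is given with its interval. Counts were also simulated for 34970 genes at the depth of MCC and MEF, with counting error only and no spread between cultures. Among genes averaging over 20 CPM, 100 of 100 made 8-fold higher and 100 of 100 made 8-fold lower were found. In that setting 0 unchanged genes were called and 95.2% of intervals held the true ratio. The simulation checks the calculation and does not measure the error rate of the 4-fold calls.

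Members and lists were chosen with earlier results of these data known. The 56 lists (4 classic, 52 others) have 1729 entries and 1699 distinct genes, 1685 in the table and 1148 tested, and 30 genes are on more than 1 of the 52. Named were the 15 genes each way off the classic lists with the largest counting bound, per list up to 6 members past the rule with the highest level and 2 not past it (all where 5 or fewer passed), the 12 most abundant higher and lower genes nearly absent from native libraries, the genes nearest the 4-fold line, members of the 5 longest runs of neighbours, and defining markers. A few genes and 1 list that this rule takes in are not reported here. Gene positions came from GENCODE M21 and promoters from RefSeq (GRCm38.p6, 27025 genes with a window). Alternatives were DESeq2 1.42.0 size factors and other scalings, level filters, floors and folds.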

Additional observations from a re-analysis of the deposited data

How the results depend on the processing

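Counts of genes past the rule moved with the level filter and the fold, and little with the scaling. With DESeq2 size factors, total counts, TMM over MCC and MEF alone, or scaling without the most abundant genes, 900 to 963 genes were higher and 300 to 332 lower. Without a level filter 1851 were higher and 885 lower, at 20 CPM or more 589 and 162, and at 8-fold 627 and 147. Lower list members numbered 95 by the rule, 185 without the filter, 53 at 20 CPM and 47 at 8-fold. Of higher genes, 35.5% were in iPSC at 5 CPM and 59.7% at 1 CPM. Of lower genes, 37.4% were in BM or PB, and 24.5% of those at least 8-fold lower. With the rule set on the counting bound nearest to 1, 847 were higher and 271 lower, and a floor of 10 counts left 943 and 318. Ratios of named genes were recomputed under the other scalings only. No gene past the rule could change direction there, because the largest shift in log2 ratio was 0.033. Of 411 named genes, 9 changed side of the 4-fold line with DESeq2 size factors (B2m, Blvra, Il10rb, Irak3, Klk8, Mthfd2, Phgdh, Rgma and Tspan11), 10 with total counts (these and Fat3) and 5 with TMM of the pair alone (among them Brdt, Coro7, Igf2bp1 and Klk8). These scalings shifted the median log2 ratio by at most 0.033. No paired analysis was possible because each group has 1 library, and for the same reason no library could be left out. The spread between cultures cannot be told apart from the groups, and depth limits genes read in MEF or MCC at 3 reads or fewer to a bound or a wide interval.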
